A study of Mus musculus with 6 samples.

Results

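The genes described here are the known transcriptional targets of p53, other than the one for p21, together with the enzymes and co-factors that regulate p53. They were taken by symbol: 43 genes were listed, and a transcript cluster (the array's set of probes for a gene) was used where the platform annotation named it with exactly that symbol alone. This found 42 of the 43 genes, each represented by its brightest cluster over the 6 arrays, out of 65956 clusters on the array. Tigar was the gene missed, because the annotation carries an older symbol for it. The samples were hematopoietic stem cells (HSCs) sorted from lineage-depleted bone marrow of mice aged 6 to 8 weeks, 3 arrays from CDK19-/- mice (knockout) and 3 from WT mice. The labels do not give the strain, sex, gate markers, deleted part of the gene or number of animals behind an array. They call the arrays biological replicates, and if animals were pooled the p-values measure the spread between pools.

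p53 is a transcription factor that is held at a low level by Mdm2, which marks it for degradation, and by Mdm4, which blocks its activity. When DNA damage or another stress frees it, p53 switches on genes for cell cycle arrest, cell death, DNA repair and metabolic control, and also genes such as Mdm2 and Ppm1d that shut it off again. In HSCs p53 is known for keeping cells quiescent and for removing damaged ones. The title of the series asks how CDK19, a kinase of the Mediator complex, bears on p53-driven transcription of p21, so the other p53 targets measured on the same arrays bear on how far that question reaches.

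Values are the authors' log2 expression values, and a change is the knockout mean minus the wild-type mean on that scale. Of the 42 members, 6 rose, 4 fell and 32 did not pass the test (limma over all 39543 tested clusters, Benjamini-Hochberg adjusted p under 0.05). The rises were those of Plk3, Tnfrsf10b, Dyrk3, Cd80, Rps27l and Mdm2, and the falls those of Mdm4, Xpc, Sesn1 and Trp53inp1. In all, 23.8% of members were called, against 7.80% of all tested clusters and 10.6% of the brightest clusters of 12749 protein-coding genes. By direction, 14.3% of members were called higher and 9.52% lower, against 4.70% and 5.93% of those protein-coding genes. The members were chosen with earlier results of these data known, so the difference between these shares is no test of the set. Counts by class given below are to be read beside the same shares. The members' median log2 change was 0.025, beside 0.003 for all tested clusters. Once all arrays had been set to one median, these were -0.005 and -0.027, so the sign of the members' median depended on the scaling. Whether the members shifted as a set was not tested. Fits with an array left out have fewer arrays to test with, and some gave lower counts. Called lower were 1 member without wild-type array 2 and 2 without wild-type array 3. Without wild-type array 3, the calls over all tested clusters were 542 higher and 764 lower, against 1172 and 1914 with all 6 arrays. All 42 members passed the filter on dim clusters, and 30 of them were brighter than the median tested cluster.

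**Figure D1:**
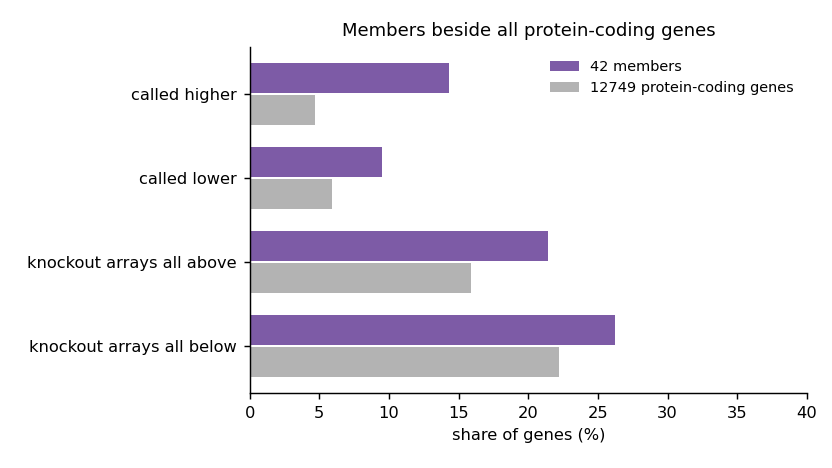
Horizontal axis, share of genes in percent; purple bars, the 42 members; grey bars, the brightest clusters of 12749 protein-coding genes. Members were called higher in 14.3% and lower in 9.52%, against 4.70% and 5.93% of protein-coding genes; knockout arrays lay wholly above wild type in 21.4% of members and wholly below in 26.2%, against 15.9% and 22.2%. The members were chosen with earlier results of these data known.

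To place the members beside their promoters, the RefSeq window from 250 bases before to 50 bases after each start site (build GRCm38.p6) was searched for the p53 decamer, the 10-base unit of which a p53 response element holds a pair. The consensus reads the same on both strands, so one search covers both. Of the 42 members, 34 had a window in the table. The decamer stood in 10 of these genes, or 29.4%, against 9.55% of all 27025 genes of the table. Some genes have several windows, and by window the shares were 22.9% of 48 and 8.36% of 32851. The members were listed largely as known p53 targets, so the higher share is no test of them. The decamer stood in the windows of 3 of 7 called members and 7 of 27 members not called. The windows of the called members are shown first, then those of regulators and targets that were not called, each with 20 bases on either side and the decamer in capitals, 5′ to 3′ along the gene's strand.
Mdm2 (chr10:117710915-117710964, minus strand): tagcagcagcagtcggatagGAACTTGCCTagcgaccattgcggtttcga
Rps27l, upstream match (chr9:66946183-66946232, plus strand): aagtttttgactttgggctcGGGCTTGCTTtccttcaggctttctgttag
Rps27l, downstream match (chr9:66946286-66946335, plus strand): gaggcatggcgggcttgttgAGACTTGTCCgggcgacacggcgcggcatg
Sesn1 (chr10:41887246-41887295, plus strand): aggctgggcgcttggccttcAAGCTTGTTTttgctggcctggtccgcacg
Ccng1 (chr11:40755442-40755491, minus strand): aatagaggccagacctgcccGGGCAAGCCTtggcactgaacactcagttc
Ppm1d (chr11:85311102-85311151, plus strand): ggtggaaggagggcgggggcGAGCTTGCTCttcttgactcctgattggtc
Ei24 (chr9:36797315-36797364, minus strand): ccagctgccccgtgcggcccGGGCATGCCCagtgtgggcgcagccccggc
Aen (chr7:78895917-78895966, plus strand): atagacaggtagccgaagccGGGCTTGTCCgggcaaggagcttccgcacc
The decamer of Mdm2 lay 186 to 177 bases before the start site, that of Sesn1 173 to 164 bases before it and that of Ei24 10 to 1 bases before it. Genes holding one included 2 that rose (Mdm2, Rps27l), 1 that fell (Sesn1) and 7 not called (Ccng1, Ppm1d, Ei24, Aen, Gadd45a, Gtse1 and Polk). Such a match describes letters in this window. Many p53 elements, such as those in the first intron of Mdm2, lie outside it.

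The labels were checked before the members were compared. Cdk19 itself was at 11.49, 11.42 and 11.51 in knockout arrays, against 12.49, 12.45 and 12.38 in wild-type arrays. This fall of 0.97 (SE 0.05), or 1.95-fold, left a signal far above the array medians of 4.40 to 4.48. What the remaining Cdk19 signal reports was not tested. Cdkn1a, encoding p21, was at 16.89, 16.78 and 16.87 in knockout arrays and 15.86, 15.78 and 15.81 in wild-type arrays, a rise of 1.03 (SE 0.04; limma, Benjamini-Hochberg adjusted p = 1.52e-04). Among markers of the sorted cells, 3 of 11 HSC genes fell (Kit, Meis1, Hlf) and 8 were not called, and the log2 of their summed signal was 16.24 to 16.29 in knockout and 16.49 to 16.58 in wild-type arrays. Markers of other cells moved with genotype too. Of 7 lymphoid-primed progenitor markers 6 fell (summed signal 14.02 to 14.10 in knockout, 15.01 to 15.02 in wild type), and of 9 B cell markers 5 fell (10.93 to 11.15 in knockout, 11.90 to 11.96 in wild type). Of 6 megakaryocyte markers 4 rose (10.97 to 11.04 in knockout, 10.08 to 10.15 in wild type), and of 12 granulocyte and monocyte markers 2 rose, Prtn3 by 0.43 and Ctsg by 0.54 (16.96 to 17.05 in knockout, 17.04 to 17.06 in wild type). The brightest gene carries most of such a sum: Mpo alone averaged 16.87 in knockout and 16.93 in wild-type arrays, and Ighm, among B cell markers, 10.78 in knockout and 11.76 in wild-type arrays. Among HSC markers Cd34 averaged 15.82 in knockout and 15.97 in wild-type arrays. Procr averaged 7.37 and 7.29, and Slamf1 5.65 and 5.78. The sums therefore say little of the dimmer markers, and the purity of the sorted HSCs was not tested. Of 5 erythroid markers 1 fell, and of 4 T and NK cell markers none was called. Beside these marker counts, 4.70% of protein-coding genes were called higher and 5.93% lower. Markers too dim to test were Rag2, Ms4a1, Gp6, Ppbp, Slc4a1, Cd3e, Ncr1 and Cd8a. In sorted populations, fewer cells of a type and less RNA per cell cannot be told apart, and the part of these marker changes in the p53 results was not tested.

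The genes that restrain p53 split between them. Mdm2, the ubiquitin ligase that degrades p53 and is itself its target, was at 10.87, 10.71 and 10.86 in knockout arrays, against 10.47, 10.49 and 10.49 in wild-type arrays. Every knockout array was above every wild-type array, and the wild-type arrays lay within 0.02 of one another. Mdm2 rose by 0.33 (SE 0.06; limma, Benjamini-Hochberg adjusted p = 0.0238), or 1.26-fold. Mdm4, the relative of Mdm2 that binds p53 without degrading it alone, was at 10.04, 10.21 and 10.27 in knockout arrays and 10.72, 10.64 and 10.56 in wild-type arrays. It fell by 0.47 (SE 0.08; limma, Benjamini-Hochberg adjusted p = 0.0178), or 1.38-fold, with no overlap of the groups. The Mdm2 call held in 1 of 6 fits with an array left out, and the Mdm4 call in 3 of 6, being lost when any one wild-type array was dropped. In these smaller fits the change was 0.302 to 0.382 for Mdm2 and -0.515 to -0.4 for Mdm4. Mdm2 also missed the threshold once all arrays had been set to one median (adjusted p = 0.0693, limma).

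Rps27l, a ribosomal protein paralogue that binds Mdm2, was at 7.87, 7.98 and 8.03 in knockout arrays, against 7.44, 7.58 and 7.66 in wild-type arrays. All knockout values were higher than all wild-type values, and the rise was 0.40 (SE 0.08; limma, Benjamini-Hochberg adjusted p = 0.0327). That call was lost whichever array was left out (adjusted p = 0.0508 to 0.104, limma) and with a common median (adjusted p = 0.0521, limma). With an array left out the rise was 0.34 to 0.45. Ccng1, encoding cyclin G1, which brings a phosphatase to Mdm2, was at 9.81, 9.70 and 9.93 in knockout arrays and 10.09, 10.12 and 10.11 in wild-type arrays. Its groups did not overlap, and its difference of -0.29 missed the threshold (adjusted p = 0.0568, limma). Ppm1d, the phosphatase WIP1 that turns off the damage response, differed by -0.06 (95% interval -0.24 to 0.13). Usp7, which removes ubiquitin from p53 and Mdm2, differed by 0.06 (-0.06 to 0.18). Of the 6 feedback genes, 2 rose, 1 fell and 3 were not called, with a median change of 0.002 that changed sign with scaling and with single arrays. With a common median it was -0.028, where all tested clusters had -0.027.

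**Figure D2:**
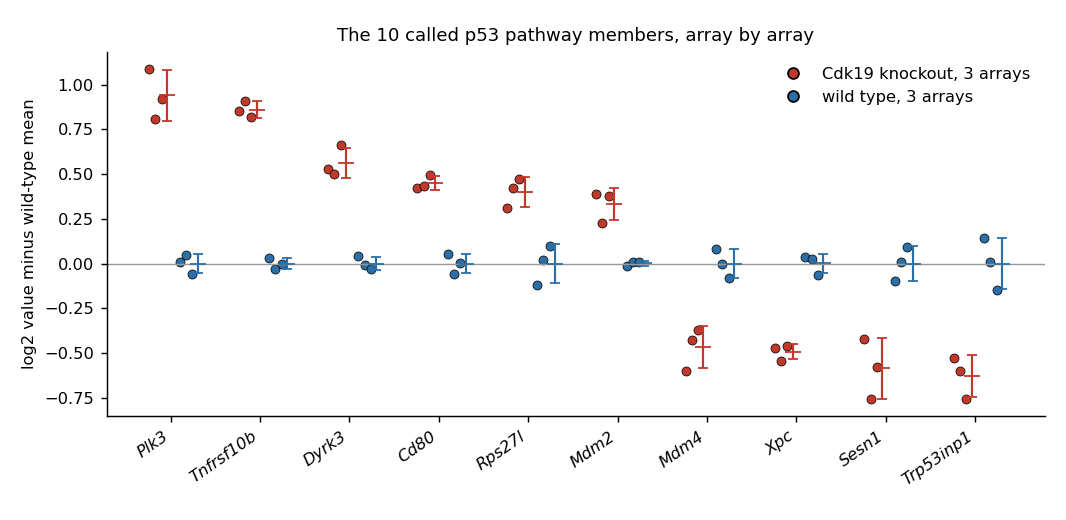
Vertical axis, log2 value of each array minus the wild-type mean of that gene, for the 10 called members ordered by change; red points, 3 knockout arrays; blue points, 3 wild-type arrays; horizontal ticks with bars, mean ± SD. Plk3 and Tnfrsf10b had the largest rises, 0.94 and 0.86, Trp53inp1 had the largest fall, -0.63, and no gene's groups overlapped. The genes were picked by their calls on these same arrays, so the lack of overlap is no further support. Groups did not overlap in 38.1% of protein-coding genes.

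Among genes of cell cycle arrest besides p21, 1 of 7 rose and 6 were not called. Plk3, a stress-activated polo-like kinase, was at 9.81, 9.53 and 9.64 in knockout arrays, against 8.73, 8.77 and 8.66 in wild-type arrays. The lowest knockout array was 0.76 above the highest wild-type array. Plk3 rose by 0.94 (SE 0.08; limma, Benjamini-Hochberg adjusted p = 0.00203), or 1.92-fold, the largest change of any member. Its relative Plk2, also a p53 target, was at 12.95, 12.79 and 12.92 in knockout arrays and 12.80, 12.79 and 12.86 in wild-type arrays, overlapping groups that differed by 0.07 (95% interval -0.07 to 0.21). Gadd45a, a stress sensor that acts in arrest and repair, differed by 0.14 (-0.06 to 0.33). Btg2, an antiproliferative co-factor of mRNA decay, had all knockout values (11.32 to 11.46) below all wild-type values (11.53 to 11.68), with a difference of -0.21 (adjusted p = 0.116, limma). Gtse1, a G2 gene whose product holds p53 in the cytoplasm, differed by -0.13, Zmat3, an RNA-binding zinc finger protein, by 0.04 and Ptpn14, a phosphatase that restrains YAP, by -0.02. The arrest genes had a median change of 0.043.

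Death genes gave 1 rise, 1 fall and 10 without a call. Tnfrsf10b, the mouse receptor for the death ligand TRAIL, was at 7.58, 7.64 and 7.55 in knockout arrays, against 6.76, 6.70 and 6.73 in wild-type arrays. Values within each genotype lay within 0.09 of each other, and the groups did not overlap. It rose by 0.86 (SE 0.06; limma, Benjamini-Hochberg adjusted p = 8.41e-04), or 1.82-fold. Trp53inp1, a nuclear cofactor of p53 that promotes apoptosis and autophagy, was at 7.22, 7.15 and 6.99 in knockout arrays and 7.89, 7.76 and 7.60 in wild-type arrays. It fell by 0.63 (SE 0.10; limma, Benjamini-Hochberg adjusted p = 0.0135), or 1.55-fold, a call lost without wild-type array 2 (adjusted p = 0.0609, limma).

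Other members of the death class were not called. Bbc3 (PUMA), a BH3-only protein, was at 6.22, 6.21 and 6.23 in knockout arrays and 6.11, 6.10 and 6.08 in wild-type arrays. These groups did not overlap, and their difference of 0.12 (95% interval -0.01 to 0.26) did not pass (adjusted p = 0.269, limma). Pmaip1 (Noxa), the other BH3-only target, differed by -0.01 (-0.31 to 0.29), and Apaf1, the scaffold of the apoptosome, by -0.11 (-0.29 to 0.06). Perp, a membrane protein of desmosomes and apoptosis, was at 5.99, 5.66 and 5.90 in knockout arrays and 5.25, 5.58 and 5.36 in wild-type arrays. Its difference of 0.45 was the largest of any member without a call (adjusted p = 0.0773, limma), with an interval of 0.16 to 0.74.

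For the death receptor gene Fas the brightest cluster has a name that places it on chromosome 17, whereas the gene lies on chromosome 19. That cluster differed by 0.20 (95% interval -0.05 to 0.46), and what it reports is uncertain. The chromosome 19 cluster of Fas was too dim to test, at 3.81 to 3.92 in knockout and 3.82 to 3.96 in wild-type arrays. Eda2r, a receptor of the TNF family, differed by 0.06, and Phlda3, an inhibitor of Akt, by -0.08. Both lay near the limit of 4.09 of the filter on dim clusters. Ei24, a membrane protein of the endoplasmic reticulum, differed by 0.04, and Aen, a nuclease of apoptosis, by -0.04. Triap1, which protects cells from apoptosis, differed by -0.18 (adjusted p = 0.214, limma), with knockout values of 5.06 to 5.21 below wild-type values of 5.23 to 5.34. The median change of the death genes was 0.018, and -0.012 with a common median, which moved the median of all tested clusters to -0.027.

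In the repair class all 5 members had a lower mean in the knockout, 1 passed the test and 4 did not. That shared direction depends on how the classes were drawn: Gadd45a, placed with the arrest genes though it also acts in repair, differed by 0.14. Xpc, which recognises damage at the start of nucleotide excision repair, was at 8.65, 8.58 and 8.66 in knockout arrays, against 9.16, 9.15 and 9.06 in wild-type arrays. The groups were 0.40 apart at their nearest values. Xpc fell by 0.49 (SE 0.06; limma, Benjamini-Hochberg adjusted p = 0.00559), or 1.41-fold. Polk, a translesion DNA polymerase, was at 5.78, 5.59 and 5.86 in knockout arrays and 6.08, 6.09 and 6.17 in wild-type arrays, a difference of -0.37 that just missed the threshold (adjusted p = 0.0513, limma).

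The remaining repair genes differed less. Ddb2, which hands ultraviolet damage to Xpc, was at 8.11, 8.08 and 8.19 in knockout arrays and 8.37, 8.35 and 8.27 in wild-type arrays, a difference of -0.20 (adjusted p = 0.116, limma). Ercc5 (XPG), the nuclease that cuts beside the lesion, was at 6.56, 6.59 and 6.57 in knockout arrays and 6.67, 6.73 and 6.72 in wild-type arrays, a difference of -0.13 (adjusted p = 0.243, limma). Rrm2b, the p53-induced subunit of ribonucleotide reductase, differed by -0.06 (95% interval -0.22 to 0.09), and its groups overlapped. Knockout arrays thus lay wholly below wild-type arrays in 4 of 5 repair genes, where 14.9% of all tested clusters and 22.2% of protein-coding genes did so. The class median was -0.20 and stayed between -0.24 and -0.18 with any 1 array left out.

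**Figure D3:**
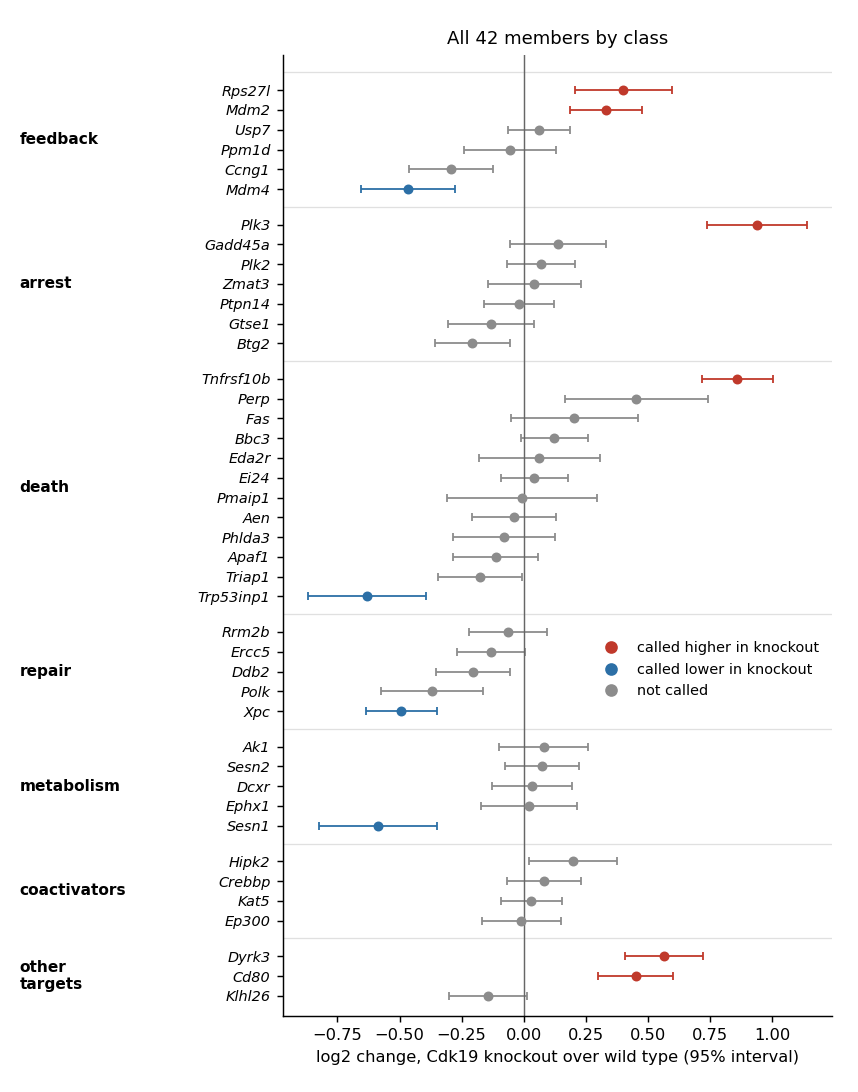
Horizontal axis, log2 change of knockout over wild type; each row is 1 of the 42 members, grouped by class; points with bars, estimate and 95% interval from limma; red, called higher; blue, called lower; grey, not called. All 5 repair genes lie left of 0, between -0.49 and -0.06, while the other classes with more than 3 members have points on both sides. Gadd45a, which also acts in repair, is drawn with the arrest genes, at 0.14.

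Metabolic targets were largely without a call. Sesn1, a sestrin that restrains mTORC1 signalling, was at 9.85, 9.51 and 9.69 in knockout arrays, against 10.17, 10.28 and 10.36 in wild-type arrays. It fell by 0.59 (SE 0.10; limma, Benjamini-Hochberg adjusted p = 0.0177), with no overlap. The Sesn1 call was lost without knockout array 3 and without wild-type array 2 or 3 (adjusted p up to 0.0766, limma). With an array left out the Sesn1 change was -0.67 to -0.5. Its relative Sesn2 was at 6.22, 6.17 and 6.27 in knockout arrays and 6.17, 6.17 and 6.10 in wild-type arrays, a difference of 0.07 (95% interval -0.08 to 0.22). Ak1 (adenylate kinase) differed by 0.08, Dcxr (a carbonyl reductase) by 0.03 and Ephx1 (an epoxide hydrolase) by 0.02, none of them called. Tigar, matched through its gene ID and outside the counts, differed by -0.02 (-0.18 to 0.14).

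Of the co-activators and kinases that act on p53, none of 4 was called. Ep300, the acetyltransferase p300, was at 13.57, 13.47 and 13.34 in knockout arrays and 13.42, 13.51 and 13.48 in wild-type arrays. Its relative Crebbp was at 15.02, 14.85 and 14.86 in knockout arrays and 14.75, 14.87 and 14.87 in wild-type arrays. Both sets of groups overlapped, with differences of -0.01 (95% interval -0.17 to 0.15) for Ep300 and 0.08 (-0.07 to 0.23) for Crebbp. Kat5, the acetyltransferase Tip60, differed by 0.03. Hipk2, a kinase that phosphorylates p53 for apoptosis, had all knockout values (10.92 to 11.10) above all wild-type values (10.69 to 10.85), a difference of 0.20 that did not pass (adjusted p = 0.187, limma).

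The 3 targets outside these classes gave 2 rises. Dyrk3, a dual-specificity kinase, was at 8.83, 8.80 and 8.96 in knockout arrays, against 8.34, 8.29 and 8.27 in wild-type arrays. It rose by 0.56 (SE 0.07; limma, Benjamini-Hochberg adjusted p = 0.00498), or 1.48-fold. Cd80, a ligand that co-stimulates T cells, was at 4.78, 4.79 and 4.85 in knockout arrays, against 4.41, 4.30 and 4.36 in wild-type arrays. It rose by 0.45 (SE 0.06; limma, Benjamini-Hochberg adjusted p = 0.00886), at a dim signal that the stricter filter removed. Neither gene's groups overlapped. Klhl26, an adaptor of the Kelch family, differed by -0.14, with knockout values of 6.00 to 6.15 below wild-type values of 6.19 to 6.24.

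Related members were then set against each other within each array, so that a shift common to an array cancels. Mdm2 minus Mdm4 was 0.83, 0.50 and 0.59 in knockout arrays and -0.25, -0.15 and -0.07 in wild-type arrays, a change of 0.80. Plk3 minus Plk2 changed by 0.87, being -3.14, -3.26 and -3.28 in knockout arrays and -4.07, -4.02 and -4.20 in wild-type arrays. Sesn2 minus Sesn1 changed by 0.66, being -3.63, -3.34 and -3.42 in knockout arrays and -4.00, -4.11 and -4.26 in wild-type arrays. In these 3 pairs the groups did not overlap, and the exact two-sided permutation test gave p = 0.10, the smallest that 3 arrays against 3 allow (adjusted p = 0.133 over 4 pairs, exact permutation test). Ep300 minus Crebbp changed by -0.09 (exact permutation p = 0.20, adjusted 0.20), with knockout values of -1.52 to -1.38 and overlapping wild-type values of -1.39 to -1.33. No pair could pass 0.05 by this test.

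**Figure D4:**
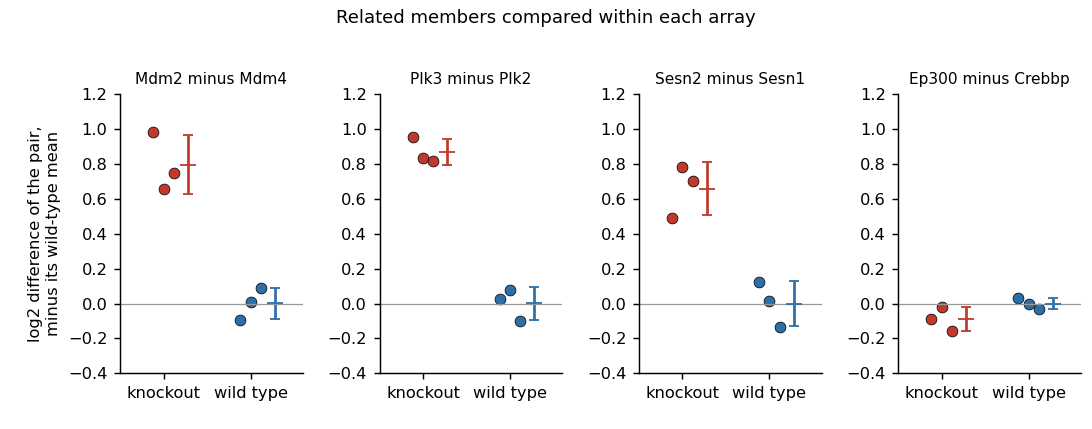
Vertical axis, log2 difference between 2 related genes in each array minus its wild-type mean; red points, 3 knockout arrays; blue points, 3 wild-type arrays; ticks with bars, mean ± SD. The difference rose by 0.80 for Mdm2 minus Mdm4, by 0.87 for Plk3 minus Plk2 and by 0.66 for Sesn2 minus Sesn1, and changed by -0.09 for Ep300 minus Crebbp, where the groups overlap.

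The 32 members not called were measured with standard errors of 0.052 to 0.126. For 30 of them the 95% interval of the change lay within 0.5 of 0 in both directions, the exceptions being Perp and Polk. These include the Fas cluster, whose target is uncertain. Eda2r, Phlda3, Zmat3, Ptpn14 and Ak1, whose clusters the stricter filter removed, are also among them. At so dim a signal a narrow interval says little of the gene. In 10 of the 32 the groups did not overlap: Bbc3, Perp and Hipk2 were higher in every knockout array, and Ccng1, Btg2, Triap1, Polk, Ddb2, Ercc5 and Klhl26 lower. Together with the called genes, knockout arrays lay wholly above wild type in 9 members (21.4%) and wholly below in 11 (26.2%), where 15.9% and 22.2% of protein-coding genes did so. Over both directions, 38.1% of protein-coding genes had groups that did not overlap.

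Calls differed in how firmly they held. Plk3, Tnfrsf10b, Dyrk3 and Xpc passed in all 12 alternative fits run for each, and Cd80 in all 11 that kept its cluster. The other 5 called members lost their call in at least 1. Among members near the threshold, Ccng1 was called without knockout array 3 (adjusted p = 0.0364, limma), with quantile normalization and with the stricter filter, and Polk with the stricter filter or no intensity trend. No called member changed direction in any of these fits, but most of them could not show such a change. The called members' groups did not overlap, so leaving out an array could not reverse a difference. The filter, trend and block settings left each change as it was.

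**Figure D5:**
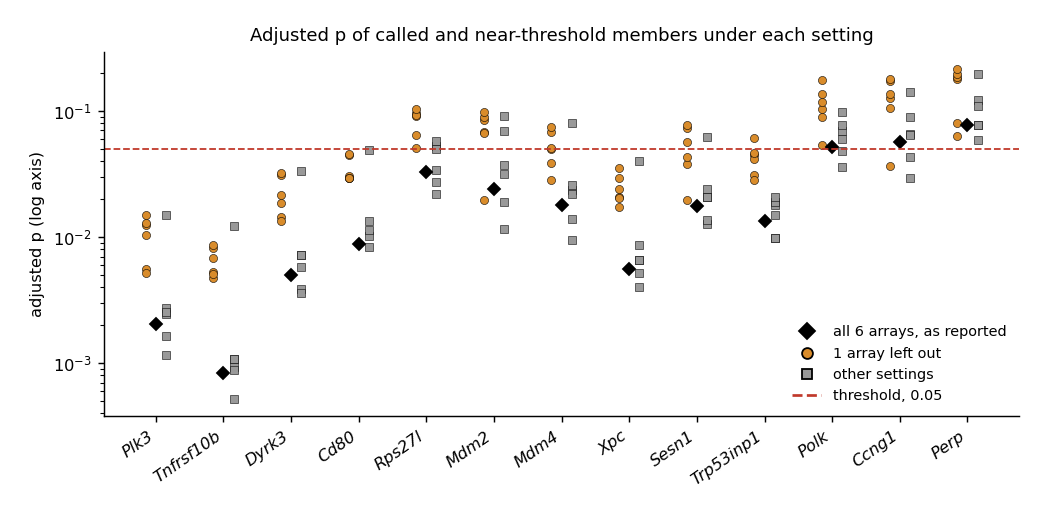
Vertical axis, limma adjusted p on a log axis for the 10 called members and the 3 nearest the threshold; black diamonds, all 6 arrays; orange points, 1 array left out; grey squares, other settings; dashed line, the threshold of 0.05. Every point of Plk3, Tnfrsf10b, Dyrk3, Cd80 and Xpc lies under the line, and 6 of 6 orange points of Rps27l lie above it.

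Genes of the pathway outside the 43 were read from fixed lists. Of 29 tested regulators, 2 fell, none rose and 27 were not called: Chek2, a checkpoint kinase that phosphorylates p53, was at 6.94, 6.74 and 6.97 in knockout arrays and 7.45, 7.73 and 7.67 in wild-type arrays (log2 change -0.73, adjusted p = 0.00886, limma). Pml, the scaffold of nuclear bodies in which p53 is modified, was at 9.25, 9.17 and 9.34 in knockout arrays and 9.93, 9.93 and 9.90 in wild-type arrays (log2 change -0.67, adjusted p = 0.00226, limma). Atm and Atr, the kinases at the head of the damage response, differed by -0.20 and -0.09 and were not called. The regulators' median change was -0.003. Of the brightest clusters of protein-coding genes, 4.70% were called higher and 5.93% lower.

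Of 20 further p53 targets tested, 3 rose, 2 fell and 15 were not called, with a median of -0.012. Besides Cdkn1a, the rises were those of Ddit4, an inhibitor of mTORC1 signalling, by 0.93 (SE 0.12; adjusted p = 0.00783, limma) and Epha2, an ephrin receptor, by 0.27 (SE 0.06; adjusted p = 0.046, limma). Without the filter on dim clusters, 2 of these 3 were called higher. The falls were those of Prkab1, a subunit of the energy sensor AMPK, by 0.62 and Lpin1, a phosphatidate phosphatase, by 0.45. Of 12 mitotic genes known to be repressed through p21 and the DREAM complex, 3 fell (Mki67, Plk1 and Kif23, by 0.30, 0.55 and 0.36) and 9 were not called, with a median of -0.245. Among all tested clusters 2.96% were called higher and 4.84% lower, and among the brightest clusters of protein-coding genes 4.70% and 5.93%.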

How the data were processed

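The authors deposited log2 expression values for 65956 transcript clusters on 6 arrays. The log2 scale was inferred from the values, which run from 2.04 to 19.93. The submitters' processing notes name MAS5 only; background correction, summary, normalization and log base stay unknown (not given in the sources used here), and fold sizes rest on the log2 reading. Array medians were 4.40 to 4.48. No detection calls or batches were used, and precision is limited by there being few arrays. The highest member value, 15.02, lies well under the ceiling.

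Repeats of 1 symbol in the platform annotation were counted as 1 symbol. Symbols of the other lists were updated through gene IDs with RefSeq. A filter removed the 40% of clusters with the lowest mean signal (limit 4.09) and kept 39543. Genotype was fitted with limma 3.58.1 (R 4.3.3; lmFit and eBayes with trend), two-sided, with Benjamini-Hochberg adjustment over all tested clusters. Standard errors and 95% intervals are moderated. Exact permutation tests used scipy 1.17.1, tables pandas 2.3.3 and plots matplotlib 3.10.9. The fit was tested on data simulated with each cluster's own mean and spread. It called 74 of 100 changes of 1.0, 33 of 100 changes of 0.5 and 4 of 39343 unchanged clusters. Far fewer clusters were changed there than were called on the real arrays, which makes the adjustment stricter. The median spread (SD) was 0.114 for all tested clusters and 0.078 for the members. The simulated shares are therefore not the sensitivity for the members.

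The members and lists were chosen with earlier results of these data known. All members are named; of other lists, the called genes with the 4 smallest p. Epha2, Atm, Atr and the cell type markers named were added after their values were seen. List genes without a cluster of their own symbol alone were not analysed here. Same-numbered arrays of the 2 genotypes had deviations correlated at -0.138, -0.097 and 0.025, so the numbers were not taken as pairs. Alternatives were quantile normalization, a common median, no filter, a stricter filter (dimmest 60% left out), no intensity trend, a replicate block, a looser threshold, all clusters of a member, and leaving out each array.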

Additional observations from a re-analysis of the deposited data

How the results depend on the processing

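The count of members called higher, 6, ran from 4 to 7 over all alternatives. The count called lower, 4, was 2 with the replicate block, 6 with the stricter filter or an adjusted p under 0.1, and 1 to 4 when an array was dropped (3, 1 and 2 on dropping wild-type array 1, 2 or 3). With the replicate block, Mdm2, Rps27l, Mdm4 and Sesn1 lost their calls, with adjusted p of 0.0575 to 0.0913 (630 of all clusters were called higher and 1083 lower, against 1172 and 1914). Mdm2 and Rps27l also lost theirs with a common median. Same-numbered arrays did not deviate together, so this block is no evidence of pairing. Leaving out 1 array gave 542 to 971 clusters higher and 764 to 1508 lower, fewest without wild-type array 3. The cause was not tested. The median change of the members, 0.025, was -0.005 with a common median, a shift that moved the median of all tested clusters to -0.027, from 0.003. Class medians moved beyond the spread between arrays for feedback genes without wild-type array 3 (0.043), death genes without knockout array 3 (-0.044), metabolic genes with a common median (0.003) or without knockout array 2 (0.072), and the other targets with the stricter filter (0.21). Differences within pairs kept their sign under each scaling and each array left out, though much of this was fixed in advance. A common median cancels within an array. Where a pair's groups did not overlap, leaving out an array could not change the sign. Signals near the limit of 4.09 (Eda2r, Phlda3, Cd80) limit what can be said of those genes. The stricter filter removed these and also Zmat3, Ptpn14 and Ak1, to which the same caution applies.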
